A study of Homo sapiens with 10 samples.

Results

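The keratins described here are 10 genes, KRT7, KRT8, KRT10, KRT15, KRT17, KRT18, KRT19, KRT20, KRT23 and KRT80, out of 58050 genes in the deposited table. They were found by their symbols, each of which matched 1 Ensembl identifier, and no measured value entered the choice. They were measured in HCT116, an established line of human colorectal carcinoma cells. Polyadenylated RNA was sequenced from HCT116-WT cells, with CD276 intact, and from HCT116-CD276KO cells, with 5 cultures per group. HCT116-CD276KO cells had received Cas9 protein with a guide RNA against CD276 by electroporation, and all of their cultures descended from 1 sorted cell. Both groups grew in the same medium in separate flasks, with no further treatment given. The labels describe a scrambled guide as the control of the editing, and do not say whether the sequenced HCT116-WT cultures had received it. A difference between the groups is thus a difference between 1 clone and the cells labelled WT, and the effect of the lost gene cannot be told apart from other features of that clone.

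Keratins are the intermediate filament proteins of epithelial cells. A filament is built from pairs of unlike chains, an acidic type I keratin with a basic type II keratin, so that a cell needs both types, and unpaired chains are degraded. In simple, single-layered epithelia such as that of the intestine the main pair is KRT8 with KRT18, with KRT19 as a further type I partner and KRT20 in differentiated intestinal cells. KRT7 is the type II keratin of many ducts and is usually scarce in colonic epithelium. KRT23 is a type I keratin that has been described in colorectal tumours, and KRT80 a type II keratin found in many epithelia. KRT10 is best known from the upper layers of the epidermis, KRT15 from the basal layer of stratified epithelia, and KRT17 from hair follicles and wounded skin, so the label of simple epithelial keratins does not describe every one of the 10 genes.

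The values are TPM, in which the reads of a gene are divided by transcript length and every library is scaled to the same total. TPM can therefore be compared between genes, and a value is a share of the messenger RNA of a library. In bulk RNA, fewer cells with a transcript and less transcript per cell cannot be told apart. CD276 itself stood at 38.08 to 53.61 TPM in the HCT116-WT libraries and at 4.40 to 7.42 TPM in the HCT116-CD276KO libraries, and fell by 2.85 on the log2 scale (SE 0.13, adjusted p = 1.39e-07, limma). Of the genes that mark colorectal epithelium, EPCAM (187.29 to 284.37 TPM over both groups), CDH1 (14.31 to 47.90 TPM) and CDX2 (6.78 to 12.20 TPM) were present, whereas VIL1, CDX1, CDH17 and LGALS4 did not exceed 0.09 TPM in any library. The 5 leukocyte markers, PTPRC and CD3E among them, summed to between 0.17 and 0.57 TPM. The 4 endothelial markers summed to between 0.10 and 0.65 TPM. The 5 fibroblast markers summed to between 4.54 and 8.98 TPM, nearly all of it COL1A1, with LUM at 0 throughout. Single libraries carried trends with the length and the GC content of transcripts. For length, the rank correlation with the deviation from the mean library was lowest in HCT116-CD276KO replicate 2 (-0.52) and highest in HCT116-WT replicate 1 (0.43). For GC content it was highest in HCT116-WT replicate 3 (0.61).

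Of the 10 keratins, 8 were tested, as their mean over all libraries reached 1 TPM. KRT7, KRT8, KRT18, KRT19 and KRT80 fell in HCT116-CD276KO cells and none rose (adjusted p under 0.05, limma). KRT7 fell the most, to 17.1% of its mean in HCT116-WT cells, and it alone was past 2-fold as well. KRT8, KRT18 and KRT19, which made up 96.9% of the TPM of all keratin genes in the table in HCT116-WT cells, fell to between 74.6% and 81.6%. Among all 13581 genes tested, 4.87% had an adjusted p under 0.05, with 4.09% of genes lower and 0.781% higher, and 0.464% were lower by at least 2-fold as well. Of the calls over all genes 84.0% were lower, a share that came to 66.2% with median-of-ratios scaling, 60.3% with quantile normalization and 53.8% with the trends with length and GC content removed. The groups did not overlap in 7 of the 8 keratins tested, against 7.61% of all genes tested. The median log2 fold change was -0.38 over the 8 keratins and -0.09 over all genes tested. KRT80 had a mean above 1 TPM in HCT116-WT cells only, and passed the filter on low values through that group.

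**Figure D1:**
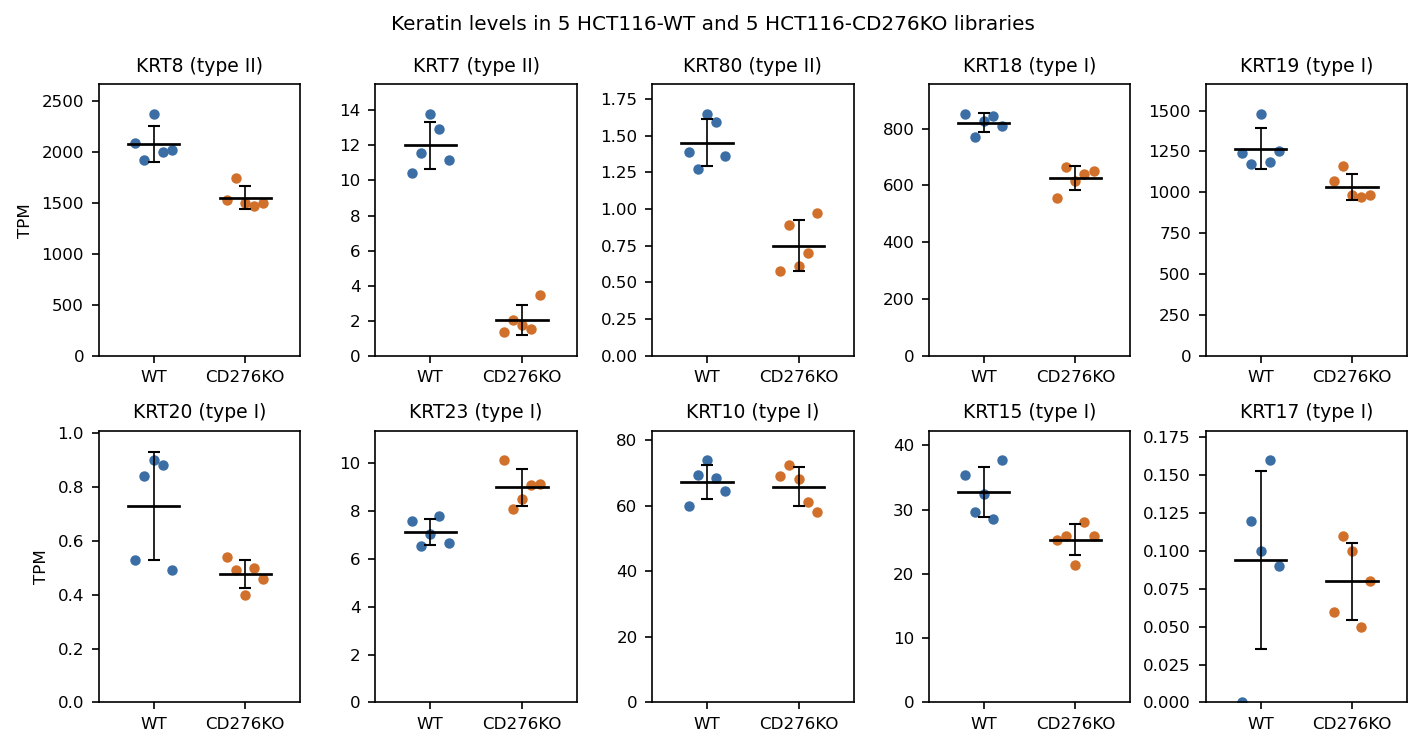
TPM (vertical axis, from 0) of each of the 10 keratins in the 5 HCT116-WT (blue) and 5 HCT116-CD276KO (orange) libraries. Points are libraries, the long line is the mean and the bars are ± 1 SD. KRT8, KRT7, KRT80, KRT18, KRT19 and KRT15 lay lower in every HCT116-CD276KO library than in any HCT116-WT library, KRT23 lay higher, and KRT10, KRT20 and KRT17 overlapped.

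KRT8 (ENSG00000170421) is the main type II keratin of simple epithelia and was the most abundant of the 10 genes in both groups. In the HCT116-WT libraries it stood at 2086.83, 1920.03, 2378.88, 1997.25 and 2026.01 TPM, and in the HCT116-CD276KO libraries at 1532.15, 1746.73, 1504.78, 1474.31 and 1505.43 TPM. Each HCT116-CD276KO library lay below all HCT116-WT libraries, with HCT116-CD276KO replicate 2 closest to them. The mean was 2082 ± 177 TPM (SD, n = 5) in HCT116-WT and 1553 ± 110 TPM (SD, n = 5) in HCT116-CD276KO cells. The log2 fold change was -0.42 (SE 0.07, 95% interval -0.57 to -0.27, adjusted p = 0.00441, limma). An exact permutation test (two-sided, 5 libraries per group) gave p = 0.00794, the smallest p that this design allows.

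KRT7 (ENSG00000135480), a type II keratin of ductal epithelia that pairs with type I keratins such as KRT19, showed the steepest difference. It stood at 10.45, 11.59, 13.81, 12.93 and 11.19 TPM in the HCT116-WT libraries, and at 1.39, 2.07, 1.75, 1.56 and 3.48 TPM in the HCT116-CD276KO libraries. The highest HCT116-CD276KO library, replicate 5, was well under the lowest HCT116-WT library. The means were 12.0 ± 1.36 and 2.05 ± 0.838 TPM (SD, n = 5 each), which is 5.85-fold lower on the TPM scale. On log2(TPM + 1), which understates a change at low levels, KRT7 fell by 2.12 (SE 0.16, 95% interval -2.47 to -1.78, adjusted p = 9.89e-06, limma). It also passed the test in all 19 alternative fits, with log2 fold changes between -2.56 and -2.02.

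KRT80 (ENSG00000167767), the other type II keratin, was close to the limit of what was tested. Its values were 1.39, 1.27, 1.65, 1.59 and 1.36 TPM in the HCT116-WT libraries and 0.58, 0.89, 0.61, 0.70 and 0.97 TPM in the HCT116-CD276KO libraries. No HCT116-CD276KO library reached 1 TPM, and no HCT116-WT library was below it. The mean fell from 1.45 ± 0.161 to 0.75 ± 0.172 TPM (SD, n = 5 each). The log2 fold change on log2(TPM + 1) was -0.49 (SE 0.11, 95% interval -0.73 to -0.25, adjusted p = 0.0292, limma), and the log2 ratio of the mean TPM was -0.95. The call was lost in 10 of 18 alternatives, among them the removal of the trends with length and GC content (-0.35, adjusted p = 0.0657, limma) and the omission of HCT116-WT replicate 1, 4 or 5 or of HCT116-CD276KO replicate 3 or 4 (adjusted p of up to 0.0673 over the omissions, limma).

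KRT7, KRT8 and KRT80 are the type II keratins among the 10 genes. Among the 7 type I keratins 5 were tested, and 2 of these passed the test, against 4.87% of all genes tested. KRT19 (adjusted p = 0.0486, limma) and KRT15 (adjusted p = 0.0533, limma) lay close to the threshold on either side. Whether the types differed was not tested.

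KRT18 (ENSG00000111057) is the type I chain that forms filaments with KRT8. It stood at 853.07, 771.07, 827.84, 845.45 and 808.99 TPM in the HCT116-WT libraries, and at 555.64, 663.44, 616.91, 639.47 and 651.28 TPM in the HCT116-CD276KO libraries. The groups did not overlap; HCT116-CD276KO replicate 1 was the lowest library. With means of 821 ± 32.8 and 625 ± 42.6 TPM (SD, n = 5 each), the log2 fold change was -0.39 (SE 0.06, 95% interval -0.52 to -0.27, adjusted p = 0.00263, limma; exact permutation p = 0.00794).

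KRT19 (ENSG00000171345), the smallest keratin and a type I chain without the usual tail, was the second most abundant of the 10 genes. Its values were 1238.23, 1174.77, 1481.35, 1185.00 and 1255.41 TPM in the HCT116-WT libraries and 1067.34, 1161.46, 984.30, 969.62 and 986.68 TPM in the HCT116-CD276KO libraries. HCT116-WT replicate 3 was the highest of all libraries, and HCT116-CD276KO replicate 2 came close to HCT116-WT replicate 2. The means were 1267 ± 125 and 1034 ± 80.9 TPM (SD, n = 5 each), with a log2 fold change of -0.29 (SE 0.08, 95% interval -0.46 to -0.13, adjusted p = 0.0486, limma). This call lay just inside the threshold. It was lost when any 1 library was left out, other than HCT116-CD276KO replicate 2, with adjusted p between 0.0339 and 0.119 over the 10 omissions (limma). With the trends with length and GC content removed the log2 fold change was -0.28 (adjusted p = 0.00085, limma).

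With TPM divided by median-of-ratios factors, a scaling under which the median over all genes tested was 0.0037, the log2 fold changes of KRT8, KRT18, KRT19 and KRT80 were -0.32, -0.29, -0.19 and -0.44. None of these 4 then passed the test, with adjusted p of 0.0692, 0.0532, 0.263 and 0.0508 (limma). The direction was the same under every alternative for the 5 keratins that fell.

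**Figure D2:**
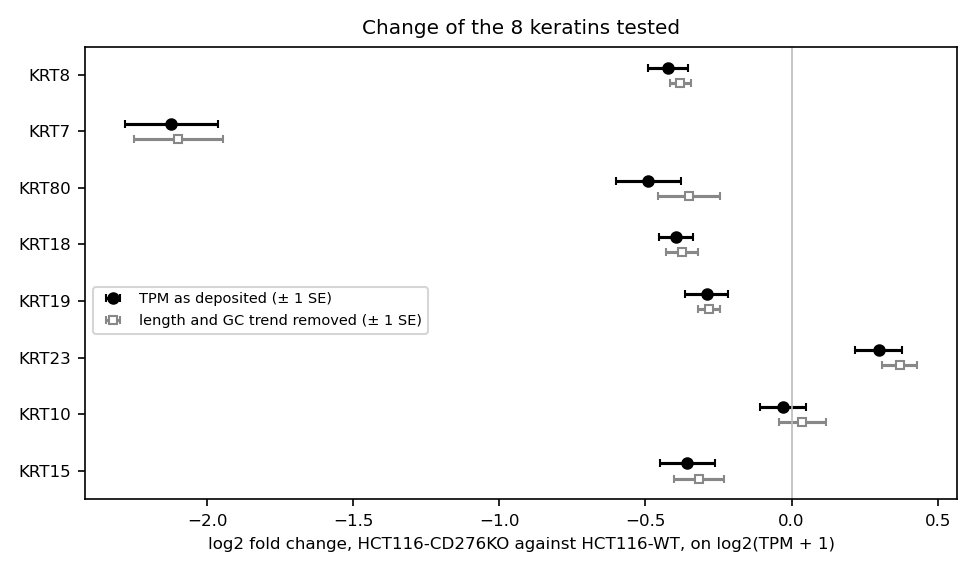
Log2 fold change of HCT116-CD276KO against HCT116-WT on log2(TPM + 1) for the 8 keratins tested (horizontal axis), from the TPM as deposited (black) and after removal of the trends with length and GC content (grey squares). Bars are ± 1 SE. KRT7 lay near -2, KRT8, KRT80, KRT18, KRT19 and KRT15 lay between -0.49 and -0.28 under both, KRT23 lay above 0, and KRT10 changed sign between them.

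KRT23 (ENSG00000108244) was the only tested keratin with a mean that was higher in HCT116-CD276KO cells by more than the spread of the libraries. It stood at 7.56, 6.54, 7.05, 7.78 and 6.66 TPM in the HCT116-WT libraries and at 10.12, 8.07, 8.50, 9.10 and 9.14 TPM in the HCT116-CD276KO libraries. Every HCT116-CD276KO library lay above every HCT116-WT library (exact permutation p = 0.00794). Its log2 fold change of 0.30 (SE 0.08, 95% interval 0.12 to 0.48) did not pass the test over all genes (adjusted p = 0.0602, limma). It passed with median-of-ratios scaling (0.39, adjusted p = 0.00899, limma), with quantile normalization (0.43, adjusted p = 0.0037, limma) and with the trends with length and GC content removed (0.37, adjusted p = 0.00351, limma).

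KRT15 (ENSG00000171346), a type I keratin of basal cells, was also without overlap between the groups and outside the threshold. Its values were 35.44, 29.57, 32.40, 28.53 and 37.71 TPM in the HCT116-WT libraries and 25.22, 25.82, 21.42, 28.06 and 25.91 TPM in the HCT116-CD276KO libraries. The highest HCT116-CD276KO library was just under the lowest HCT116-WT library. The log2 fold change was -0.36 (SE 0.09, 95% interval -0.56 to -0.15, adjusted p = 0.0533, limma). It passed when genes needed a mean of 5 TPM (adjusted p = 0.0496, limma) and with the trends with length and GC content removed (-0.32, adjusted p = 0.0403, limma).

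KRT10 (ENSG00000186395), the type I keratin of differentiated epidermis, stood at 59.98, 69.35, 74.01, 68.64 and 64.71 TPM in the HCT116-WT libraries and at 69.27, 72.59, 68.29, 61.31 and 58.24 TPM in the HCT116-CD276KO libraries. The groups covered nearly the same range. Its log2 fold change was -0.03 (SE 0.08, 95% interval -0.20 to 0.14, adjusted p = 0.832, limma), an interval that leaves out a fall as large as the point estimates of KRT8, KRT18 and KRT19, and its sign changed under the median-of-ratios, quantile and length and GC alternatives.

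KRT20 and KRT17 had means under 1 TPM and were not tested across genes. KRT20 (ENSG00000171431), the keratin of differentiated intestinal cells, stood at 0.53, 0.84, 0.90, 0.88 and 0.49 TPM in the HCT116-WT libraries and at 0.54, 0.49, 0.40, 0.50 and 0.46 TPM in the HCT116-CD276KO libraries. The HCT116-WT libraries were split between 3 near 0.9 TPM and 2 at the HCT116-CD276KO level, and the exact permutation test gave p = 0.0556. KRT17 (ENSG00000128422) did not exceed 0.16 TPM in any library and was at 0 in HCT116-WT replicate 1 (exact permutation p = 0.683).

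**Figure D3:**
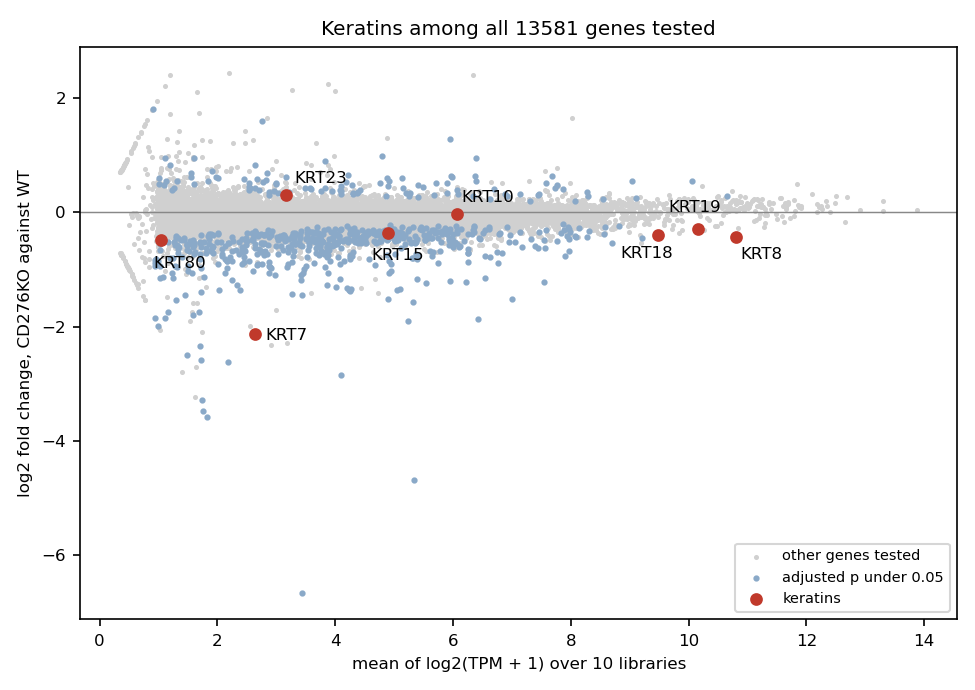
Log2 fold change (vertical axis) against mean log2(TPM + 1) over the 10 libraries (horizontal axis) of all genes tested, with genes at an adjusted p under 0.05 in blue and the 8 keratins in red. KRT7 stood far below the other keratins at -2.12, and KRT8, KRT19 and KRT18 were among the most abundant genes, at -0.42 to -0.29.

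The order of the levels was nearly the same in both groups. In HCT116-WT cells it ran, from the highest mean TPM down, KRT8, KRT19, KRT18, KRT10, KRT15, KRT7, KRT23, KRT80, KRT20 and KRT17. In HCT116-CD276KO cells KRT7 and KRT23 had changed places, with KRT23 at 8.99 ± 0.774 TPM above KRT7 at 2.05 ± 0.838 TPM (SD, n = 5 each). The 5 values of neighbours in the order did not overlap in either group. The step between KRT18 (821 TPM in HCT116-WT cells) and KRT10 (67.3 TPM) separated the KRT8, KRT18 and KRT19 transcripts from the rest. The 10 genes together took up 0.429% ± 0.0315 of all TPM in HCT116-WT and 0.331% ± 0.0207 in HCT116-CD276KO libraries (SD, n = 5 each).

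As filaments need both types, the sums of the types were compared within each library. The 3 type II genes summed to 2095 ± 177 TPM and the 7 type I genes to 2196 ± 139 TPM in HCT116-WT cells (SD, n = 5). In HCT116-CD276KO cells the sums were 1556 ± 111 and 1760 ± 97.1 TPM (SD, n = 5). The ratio of KRT8 to the sum of KRT18 and KRT19 lay between 0.981 and 1.03 in the HCT116-WT libraries, with a mean of 0.996 ± 0.0201. In the HCT116-CD276KO libraries it lay between 0.916 and 0.957, with a mean of 0.935 ± 0.0174 (SD, n = 5 each). The TPM of KRT8 and the summed TPM of its 2 main partners were thus nearly equal in HCT116-WT cells, and the ratio was lower in every HCT116-CD276KO library. As described below, the TPM of KRT8 and KRT18 depend on how reads that fit several genes were placed, which was not stated. Whether the transcripts were equal in number was therefore not tested. The ratio of KRT8 to KRT18 alone was 2.53 ± 0.196 and 2.49 ± 0.200 and overlapped between the groups, and that of KRT19 to KRT18 was 1.54 ± 0.151 and 1.66 ± 0.174. KRT7 made up 0.573% ± 0.0544 of the type II TPM in HCT116-WT cells and 0.132% ± 0.0558 in HCT116-CD276KO cells (SD, n = 5 each). These ratios were derived from the values already tested and carry no p.

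**Figure D4:**
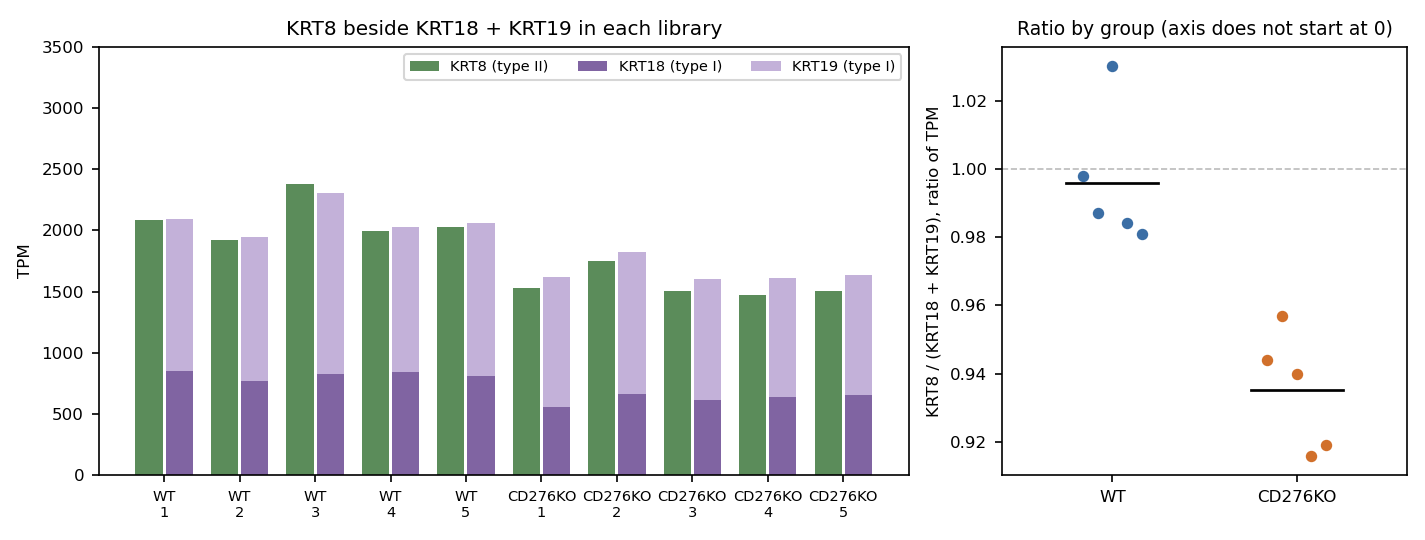
Left, TPM of KRT8 (green) beside the stacked TPM of its partners KRT18 (dark purple) and KRT19 (light purple) in each library, with both bars of nearly the same height in HCT116-WT. Right, the ratio of the bars for each library, with the mean as a line and an axis that does not start at 0, between 0.981 and 1.03 in HCT116-WT and between 0.916 and 0.957 in HCT116-CD276KO libraries.

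The 10 genes lie in the 2 keratin clusters of the genome. On hg38, with the annotation of GENCODE 44, all type II genes and the type I gene KRT18 are on chromosome 12, at chr12:52168996-52192014 (KRT80, minus strand), chr12:52232520-52252186 (KRT7, plus strand), chr12:52897187-52949954 (KRT8, minus strand) and chr12:52948871-52952906 (KRT18, plus strand). The other type I genes are on chromosome 17, at chr17:40818117-40822614 (KRT10), chr17:40875889-40885242 (KRT20), chr17:40922700-40937646 (KRT23), chr17:41513745-41522529 (KRT15), chr17:41523617-41528308 (KRT19) and chr17:41619442-41624842 (KRT17), all on the minus strand. Among the called keratins, KRT7, KRT8, KRT18 and KRT80 lie on chromosome 12 and KRT19 on chromosome 17, where KRT20 and KRT17 were not tested. KRT80 ends 40506 bases before KRT7 begins. Of 4 tested genes within 500 kb of KRT7 that are no keratins, none passed the test, with log2 fold changes between -0.25 and 0.01. Within 500 kb of KRT8, 1 of 17 such genes passed, IGFBP6, an insulin-like growth factor binding protein (46.4 ± 5.31 against 34.6 ± 4.05 TPM, adjusted p = 0.0361, limma). Within 500 kb of KRT19, 1 of 12 passed, JUP, the plakoglobin of desmosomes and adherens junctions, to which keratin filaments are tied (148 ± 9.77 against 103 ± 13.7 TPM, log2 fold change -0.52, adjusted p = 0.00725, limma). The IGFBP6 call was lost with median-of-ratios scaling (adjusted p = 0.149, limma) and quantile normalization (adjusted p = 0.129, limma). It was lost too with the low-value filter dropped (adjusted p = 0.0746, limma) and a block for replicate number (adjusted p = 0.0506, limma). Leaving out HCT116-WT replicate 1, 2, 3 or 5 or HCT116-CD276KO replicate 1, 4 or 5 also removed it. Of all genes tested 4.87% passed, so that 1 gene in such a window is near the background. IGFBP6 and JUP were named after their values were seen.

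Keratin genes resemble each other and have left many pseudogenes, so some short reads fit more than 1 place. The share of each canonical transcript's 50-base stretches that recur exactly in a transcript of another annotated gene was 39.2% for KRT8 (680 of 1735 stretches, in 36 genes of which 33 are its pseudogenes) and 35.3% for KRT18 (481 of 1364, in 43 genes, all of them its pseudogenes). It was 17.4% for KRT17, and between 0% and 1.79% for the other 7, KRT7 (1.08%) and KRT80 (0.418%) among them. The TPM of KRT8 and KRT18 thus depend on how the authors' programs placed reads that fit several genes, which was not stated, and those of KRT7, KRT19, KRT10, KRT15, KRT20 and KRT23 hardly do.

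The pseudogenes of the 10 keratins were few among the tested genes. Of the 131 listed, 6 passed the filter on low values, KRT8P36, KRT8P30, KRT8P12, KRT8P33, KRT8P3 and KRT18P28. All 6 had a negative log2 fold change (median -0.22), as had 68.1% of all genes tested. KRT18P28, KRT8P33 and KRT8P3 had a mean above 1 TPM in HCT116-WT cells only, and passed the filter on low values through that group. The filter thus favoured a negative sign for them. Of the 6 pseudogenes, 2 had an unadjusted p under 0.05, against 21.9% of all genes tested, and only KRT8P36 passed the test. KRT8P36 (ENSG00000240668) fell from 15.0 ± 0.964 to 10.5 ± 0.858 TPM (SD, n = 5 each), a log2 fold change of -0.49 (adjusted p = 0.0036, limma), next to -0.42 for KRT8. The call was lost with quantile normalization (adjusted p = 0.065, limma). Over the coding sequence of KRT8 aligned with KRT8P36, 1342 of 1457 aligned positions were identical (92.1%). The KRT8P36 value is therefore uncertain, and how much of it came from reads of KRT8 was not tested. The 131 pseudogenes summed to between 29.1 and 31.0 TPM in the HCT116-WT and between 20.3 and 23.8 TPM in the HCT116-CD276KO libraries, a small amount beside the TPM of KRT8.

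Some of the genes also overlap others on the opposite strand. KRT8 and KRT18 share 1084 bases in the annotation (chr12:52948871-52949954), as a long form of KRT8 begins beyond the start of KRT18, but their canonical starts are 44042 bases apart. KRT7 shares 2401 bases with KRT7-AS, which did not exceed 0.04 TPM, and KRT10 shares 3514 bases with KRT10-AS1, at 32.7 ± 1.80 TPM in HCT116-WT and 33.6 ± 3.15 TPM in HCT116-CD276KO cells. The libraries kept the strand, and the strand setting of the counting was not given in the sources used here. Both antisense genes were named after their values were seen.

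Of 57 other keratin genes in the table, 55 were under 1 TPM in every library and 22 were at 0 in all of them. Only KRT222, a short keratin-related gene on chromosome 17, was tested, and it stood at 7.57 ± 0.694 TPM in HCT116-WT and 9.03 ± 0.897 TPM in HCT116-CD276KO cells, with overlap (log2 fold change 0.23, adjusted p = 0.163, limma). KRT13, a type I keratin of stratified mucosa, was too low to be tested. It stood at 1.20 ± 0.204 TPM in HCT116-WT and 0.632 ± 0.108 TPM in HCT116-CD276KO cells without overlap (SD, n = 5 each). As KRT13 was named after its values were seen, no p is given for it. The stratified epithelium genes, in which KRT1, KRT5, KRT14, TP63 and IVL are listed with KRT13, had 12 of 13 symbols in the table. None of these was tested, and 11 were under 1 TPM in every library. Their sum lay between 1.79 and 2.55 TPM in HCT116-WT and between 0.97 and 1.11 TPM in HCT116-CD276KO libraries. That sum includes KRT13, and no other gene in it reached 1 TPM. KRT1 was at 0 in all libraries.

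Keratin filaments are anchored at junctions and bound by linker proteins. Of 12 genes for such linkers and binders, all were tested, 2 fell and none rose, against 4.09% lower and 0.781% higher among all genes tested. An unadjusted p under 0.05 was found for 7 of the 12, against 21.9% of all genes tested, and a negative log2 fold change for 11, against 68.1%. The median was -0.32, against -0.09 over all genes tested. These shares and the median are from the TPM as deposited, in which single libraries carried trends with transcript length and GC content. They were not repeated with those trends removed, so a part of the trends in them was not tested. SFN, the 14-3-3 sigma protein that binds keratins of epithelial cells, fell from 284 ± 18.8 to 224 ± 11.1 TPM (SD, n = 5 each, log2 fold change -0.34, adjusted p = 0.00775, limma). With median-of-ratios scaling SFN was no longer called (-0.24, adjusted p = 0.108, limma). EVPL, the envoplakin that ties keratins to desmosomes, fell from 8.82 ± 1.19 to 5.53 ± 0.709 TPM (SD, n = 5 each, log2 fold change -0.59, adjusted p = 0.0095, limma). With the trends removed the log2 fold change was -0.34 for SFN (adjusted p = 0.000365, limma) and -0.41 for EVPL (adjusted p = 0.00203, limma). Both were named because they passed the test, and both were without overlap between the groups, against 7.61% of all genes tested.

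Of 15 other intermediate filament genes 8 were tested, and 1 passed the test, against 4.87% of all genes tested. An unadjusted p under 0.05 was found for 4 of the 8, against 21.9%, and a negative log2 fold change for 6, against 68.1%. The median was -0.16, against -0.09 over all genes tested. These values too are from the TPM as deposited. VIM, vimentin, the intermediate filament of mesenchymal cells, rose from 4.22 ± 0.231 to 6.80 ± 0.254 TPM (SD, n = 5 each), a log2 fold change of 0.58 (adjusted p = 0.000656, limma). Its levels stayed far below those of KRT8, KRT18 and KRT19 in both groups. The 5 caspases that are known to cleave or to act upstream of the cleavage of keratins were all tested (median log2 fold change -0.01). None passed, nor did any have an unadjusted p under 0.05, against 4.87% and 21.9% of all genes tested. Among the epithelial markers, CDH1, the E-cadherin of adherens junctions, and EPCAM, an epithelial adhesion molecule, also fell, by 1.07 (adjusted p = 0.00311, limma) and by 0.35 (adjusted p = 0.0322, limma) on the log2 scale. The third tested marker of colorectal epithelium, CDX2, a transcription factor of intestinal cells, did not pass the test (log2 fold change 0.07, adjusted p = 0.786, limma). The EPCAM call was lost with median-of-ratios scaling (adjusted p = 0.119, limma) and quantile normalization (adjusted p = 0.0524, limma). It was lost too with the low-value filter dropped (adjusted p = 0.0682, limma) and a block for replicate number (adjusted p = 0.0799, limma). Leaving out any 1 library other than HCT116-WT replicate 3 or HCT116-CD276KO replicate 5 also removed it. The part of such epithelial genes in the keratin result was not tested.

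For each keratin that fell, the genes with the most similar profile over the 10 libraries were looked up by Pearson correlation of log2(TPM + 1), as a description. The 10 values hold both groups, so the difference between the groups enters the correlation. For KRT7 they were KRTAP2-3 (r = 0.99), KLK7 (0.98) and SH3RF2 (0.98), for KRT8 SFN (0.99), MVK (0.98) and RHOF (0.98), and for KRT18 TINAGL1 (0.98), BAG3 (0.97) and BMP4 (0.97). For KRT19 they were SPINT1 (0.98), DUSP9 (0.97) and PLOD3 (0.97), and for KRT80 BMP4 (0.99), C6orf132 (0.98) and KLK10 (0.97).

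When each library was set against the mean of its own group, KRT8 and KRT19 moved together over the 10 libraries (r = 0.96), while KRT8 and KRT18 did so less (r = 0.35). With the trends with length and GC content removed these correlations were 0.29 and -0.29. The transcripts of KRT8 and KRT19 have a GC content of 59.3% and 61.8%, and that of KRT18 has 58.2%. KRT7 and KRT80, the neighbours on chromosome 12, had an r of 0.84 before and 0.55 after the removal. KRT18, farther along that chromosome, had 0.75 before and 0.46 after with KRT80, and 0.50 and 0.51 with KRT7. KRT8 had 0.52 and 0.37 with KRT80, and 0.20 and -0.16 with KRT7. Whether position had a part in these values was not tested. The libraries share the trends with length and GC content, and no p is given for these values.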

How the data were processed

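The deposited values are TPM that the authors made from single 50-base reads of strand-specific libraries. They mapped the reads to hg38 with STAR 2.5.2b and quantified the genes of Ensembl with RSEM 1.3.0 and featureCounts 1.5.1. Which program gave the TPM is not given in the sources used here. TPM keep no read counts, so the depth behind a value is unknown and no counting interval is given. Precision was taken from the 5 cultures per group, whose p-values measure the spread between cultures of 1 clone and 1 set of HCT116-WT cells.

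A linear model of group on log2(TPM + 1) was fitted in limma 3.58.1 (R 4.3.3) to the 13581 genes with a mean of 1 TPM or more, with empirical Bayes moderation and a variance trend, and p-values were adjusted by Benjamini-Hochberg over all of them. A keratin was called at an adjusted p under 0.05. Single genes were also compared by two-sided exact permutation tests on log2(TPM + 1). The script was tested on simulated data. As alternatives, 0.1 replaced the pseudocount, the filter was dropped (all genes above 0 TPM) or raised to 5 TPM, values were scaled by median-of-ratios factors or quantile-normalized, and limma's robust variance estimate was used. Further ones were a block for replicate number, removal of each library's trend with length and GC content (local regression, span 0.3, 13472 genes with both values), fold thresholds of 2 and 1.5, the log2 ratio of mean TPM, and the omission of each library in turn.

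Symbols were paired with 56947 of 58050 identifiers through a name table. Positions and transcripts came from GENCODE 44 on hg38, a newer annotation than that of the authors on the same assembly. Stretches shared between genes were counted in Python 3.11.15 with biopython 1.88. The genes named were the 10 keratins, CD276, other keratins and keratin pseudogenes that were tested, called genes of the lists (at most 6 per list) and the 3 genes most alike to each called keratin. The keratins, lists and tests were chosen with earlier results of these data known. Some sequences are not reported here.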

Additional observations from a re-analysis of the deposited data

Results flagged for a closer look

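In 2 of 20 groups of 5 libraries (10 keratins in HCT116-WT and in HCT116-CD276KO cells) the highest library stood apart from the other 4, where chance sets about 1 in 20 groups apart. KRT8 in HCT116-CD276KO replicate 2, at 1746.73 TPM, was separated from the next library by 0.788 of the range of its group. Without that library the log2 fold change of KRT8 was -0.46 in place of -0.42 (adjusted p = 0.00258, limma). KRT19 in HCT116-WT replicate 3, at 1481.35 TPM, was separated by 0.737 of the range. Without it the log2 fold change of KRT19 was -0.23 in place of -0.29 (adjusted p = 0.0579, limma), which is outside the threshold. These libraries had the highest rank correlations with GC content, 0.48 and 0.61. On the log2 scale the gaps were 0.773 and 0.714 of the range. After the trends with length and GC content were removed both were still the highest of their groups, with gaps of 0.369 and 0.174 of the range on that scale.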

How the results depend on the processing

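CD276 and KRT7 were called under all 19 alternatives, and KRT8 and KRT18 under 18 of them, in each case all but median-of-ratios scaling. KRT19 was not called under 12 and KRT80 under 10 of 18. Of the 8 keratins tested, 5 were called. With median-of-ratios scaling 2 were called, KRT7 and KRT23, of which KRT23 was higher in HCT116-CD276KO cells. With the replicate block 3 were called, and 6 with the trends with length and GC content removed (KRT15 and KRT23 in, KRT80 out). When a change of 2-fold or of 1.5-fold was asked as well, 1 was called. The count was 3 to 5 when single libraries were left out, with 3 without HCT116-WT replicate 1, 4 or 5 or HCT116-CD276KO replicate 3 or 4. Over all genes the 662 calls became 378 with the replicate block, 1299 with the trends removed, and 343 to 857 without single libraries. The log2 fold change of KRT10, -0.03, turned to 0.0685 with median-of-ratios scaling, 0.0534 with quantile normalization and 0.0366 with the trends removed, with or without the block, and ran from -0.0712 to 0.0119 without single libraries. The cause of these shifts was not tested. Replicate numbers did not pair the libraries, as deviations of the same number correlated at -0.18 to 0.12 and 1 of 5 numbers correlated best with its own. The replicate block left KRT7, KRT8 and KRT18 called, and not KRT19 (adjusted p = 0.101, limma) or KRT80 (adjusted p = 0.1, limma). Under the other alternatives run, which were the pseudocount, both other filters, quantile normalization, the robust variance model and the trends removed with the block, 4 or 5 keratins were called and 512 to 688 genes in all. These were not always the same keratins. KRT23 was called and KRT80 was not with quantile normalization and with the trends removed with the block. KRT15 was called with the filter at 5 TPM, under which KRT80 was not tested. As TPM keep no depth, how far read numbers limit the low values of KRT80, KRT20 and KRT17 was not tested.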
